A study of Mus musculus with 16 samples.

Results

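The step from spermatogonia, by name the mitotic germ cells of the testis, to MI spermatocytes was compared across genes in wild-type mice. The changes come from 4 of the 16 libraries of the series, and all 16 entered the fit that gave the spread behind the p-values. The members were chosen by sample title: 2 libraries of spermatogonia and 2 of MI spermatocytes, a label that names cells up to the first meiotic division. All libraries came from sorted testis cells of 8-week-old male C57BL/6J mice, made as poly(A)-enriched bulk RNA libraries, and the wild type is labelled WT with no allele or transgene named. The other genotype gave a second look at the same step, and its libraries also entered the spread. This genotype was Tex10f/-; Stra8iCre, with a floxed and a null allele of Tex10. An iCre recombinase stood under the Stra8 promoter, which is active in spermatogonia. How the cells were sorted, and whether replicate libraries came from separate animals, is not stated in the labels. The p-values below therefore measure the spread between these libraries, which may be technical. Levels are FPKM, fragment numbers scaled to transcript length and library size. Changes are MI minus spermatogonia on log2(FPKM + 1), a scale that understates the change of low genes. Of the 13101 genes in the deposited table, 13099 reached 1 FPKM in at least 2 libraries and were tested with limma, and a gene counts as called where its Benjamini-Hochberg adjusted p was under 0.05.

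As background, spermatogonia divide by mitosis, and retinoic acid moves them through a Kit-positive differentiating stage into meiosis, where chromosomes break, synapse and recombine during a long prophase. From the pachytene stage of that prophase, MYBL1 (A-MYB) and other transcription factors switch on genes of the piRNA pathway and of the future sperm. Many of these transcripts are stored for translation in spermatids. The X and Y chromosomes, which have no full partner in males, are silenced in the pachytene sex body, and autosomal retrogenes of X-linked housekeeping genes are known as substitutes.

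Between 10618 and 11115 genes reached 1 FPKM in each of the 4 libraries. All FPKM summed to 196944 and 199649 in the spermatogonia libraries and to 277335 and 302210 in the MI libraries, so sums over genes are not on the same footing. Spearman's rho across genes was 0.946 between the spermatogonia libraries and 0.959 between the MI libraries, and 0.508 to 0.605 across the cell types (genes are not independent replicates). In spermatogonia, Hist1h2aa, a testis histone, and Rmrp, a non-coding RNA of an RNA-processing enzyme, together took 10.96% and 9.45% of all FPKM, against 1.01% and 0.268% in MI spermatocytes. Tex10 itself did not differ between the cell types in the wild type, with 55.4 and 50.02 FPKM in spermatogonia and 63.1 and 57.5 in MI spermatocytes. In the Tex10-deficient libraries Tex10 stood at 13.6 and 18.96 FPKM in spermatogonia and 10.9 and 14.6 in MI spermatocytes, so all 4 lay below the wild-type libraries.

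In limma, 6800 of 13099 genes were called: 3439 (26.3% of those tested) were higher in MI spermatocytes and 3361 (25.7%) were lower. The rises were larger than the falls. On the log2(FPKM + 1) scale, 495 genes rose by over 16-fold and 47 by over 64-fold, while 28 genes fell by over 16-fold and 2 by over 64-fold. The median change was 2.05 among the genes called higher and −1.50 among those called lower. Both spermatogonia libraries were listed at 0 for 213 of the rises, and both MI libraries for 35 of the falls. Separation without a call was common, since the MI libraries lay above both spermatogonia libraries for 5116 genes and below both for 5368. The median change over all genes was −0.07, or −0.25 under quantile normalization, which gave 3116 rises and 4064 falls.

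**Figure D1:**
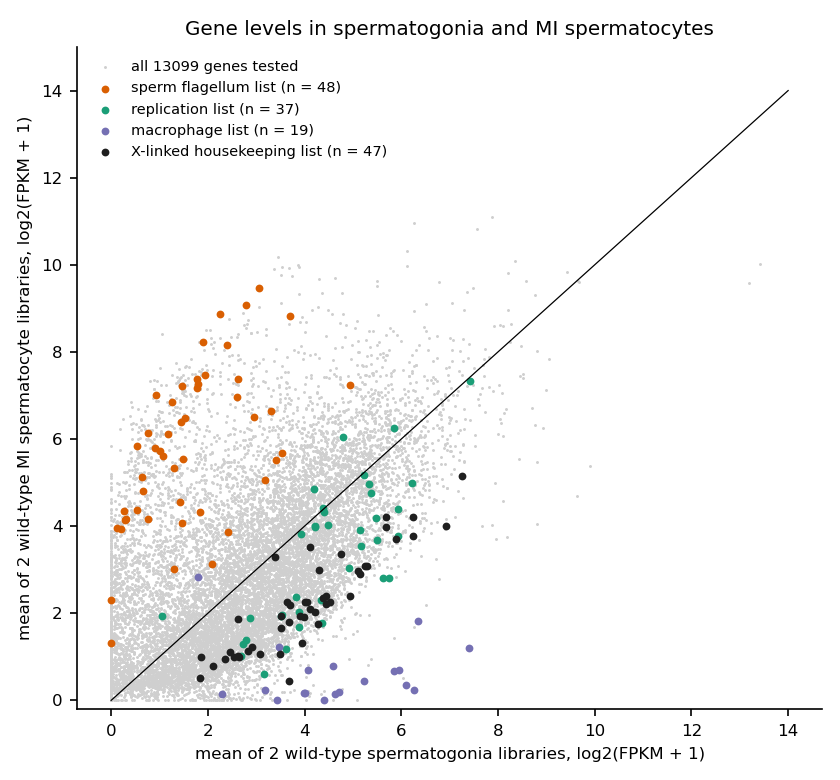
Mean level of each of 13099 genes in 2 wild-type spermatogonia libraries (horizontal) and 2 wild-type MI spermatocyte libraries (vertical), both as log2(FPKM + 1), with 4 gene lists coloured and a line of equal levels. Flagellum genes lie above the line, and replication, X-linked housekeeping and macrophage genes lie mostly below it.

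The largest rises of genes with a name of their own joined translation, piRNA granules and the sperm tail; only 1700026D08Rik, known by a clone name and named after its values were seen, rose more (7.35 on the log2 scale). Pabpc6 (XLOC_009126, chromosome 17, 9666495 to 9669717, minus strand, mm10), a testis poly(A)-binding protein, held 6.06 and 13.7 FPKM in spermatogonia and 959 and 1347 in MI spermatocytes, which is 6.80 higher on the log2 scale (limma SE 0.61 and adjusted p = 2.0e-06). Its relative Pabpc2 held 5.16 and 13.4 FPKM in spermatogonia and 926 and 984 in MI spermatocytes. Both come from intronless copies, and reads shared with Pabpc1 could have been split between them, so each level is uncertain. Tekt3, a tektin of the flagellar microtubules, went from 4.76 and 2.77 to 374 and 566 FPKM (log2 change 6.63). Tdrd6, a tudor protein of the chromatoid body, went from 1.48 and 4.35 to 298 and 426 FPKM (6.62), and Fabp9, a fatty acid-binding protein of the acrosome region, from 1.70 and 9.59 to 437 and 513 FPKM (6.47). The rule also named Pom121l2, Ccdc7b, CK137956, Mgat4d and Ccdc38, which rose by between 6.42 and 6.49. CK137956 is a sequence identifier used as a symbol, a kind that the rule did not leave out. All 10 rose in both genotypes, and the rule took only genes whose wild-type MI libraries both lay above both spermatogonia libraries.

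The most abundant transcripts changed with the step. In MI spermatocytes Mael, a piRNA pathway protein, led with 1986 and 2384 FPKM, against 246 and 225 in spermatogonia. Ybx3, a protein that binds stored mRNAs, followed with 1822 and 2128 FPKM against 57.0 and 94.1, Pabpc1 with 1575 and 2047 against 166 and 211, and Lyar, a nucleolar protein, with 973 and 1594 against 59.1 and 77.7. All of these rose. In spermatogonia the leaders were Hist1h2aa, with 10547 and 11318 FPKM against 1394 and 683 in MI spermatocytes, and Rmrp, with 11037 and 7559 against 1406 and 127. Hist1h2ai fell from 904 and 1016 to 63.9 and 17.8 FPKM. Npm1, a nucleolar chaperone, and Eef1a1, a translation factor, were nearly level, with Npm1 at 693 and 938 against 727 and 827 FPKM and Eef1a1 at 799 and 804 against 769 and 801. Histone and Rmrp transcripts mostly lack a poly(A) tail, and clustered histone genes are near-identical copies, so their levels in poly(A)-enriched libraries are uncertain. The fall of Rmrp (adjusted p = 0.0056) was lost without MI replicate 2.

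Mybl1 (XLOC_000668, chromosome 1, 9667415 to 9700209, minus strand), the gene of the A-MYB factor, held 5.25 and 8.14 FPKM in spermatogonia and 136 and 172 in MI spermatocytes, which is 4.35 higher on the log2 scale (limma SE 0.49 and adjusted p = 9.7e-06). Of 30 regulators of meiotic and haploid genes tested, 15 rose, 9 fell and 6 were not called, with a median change of 1.30 against −0.07 over all genes. Kctd19, a meiotic adaptor protein, went from 1.71 and 1.34 to 136 and 175 FPKM, and Zfp541, its zinc finger partner, from 0.728 and 1.38 to 19.3 and 23.5. Rfx2, a regulator of cilium and flagellum genes, went from 5.98 and 4.10 to 103 and 132 FPKM, and Rfx4 from 0.247 and 0.510 to 24.5 and 36.5. Ccdc62, a testis coactivator, rose from 4.39 and 5.91 to 135 and 165 FPKM. The spermatogonial regulators Dmrt1, Taf4b and Prdm9 were among the 9 that fell. Nr6a1 and Rfx1 were not called, with Nr6a1 at 10.2 and 14.2 against 14.7 and 16.6 FPKM and Rfx1 at 7.48 and 4.59 against 3.20 and 2.41.

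The letters that MYB proteins bind were searched for in the promoters of the genes tested, because Mybl1 was among the regulators that rose. RefSeq promoters (GRCm38.p6, 250 bases before to 50 after each start) were matched by symbol for 9999 genes with 12661 promoters. The word GGCNGTTG, on either strand, stood in 4.72% of all of these, in 7.98% of the promoters of genes that rose, in 2.59% for genes that fell and in 4.06% for genes not called. Among the 500 genes with the largest rises it stood in 13.3% of 450 matched promoters, and among the 500 with the largest falls in 1.11% of 449. Windows of 60 bases around the word are printed for some named genes whose promoter holds the word, which is in capitals and can lie on either strand. Cul4b, which fell, is printed beside the genes that rose. Named genes that hold the word but are not printed include CK137956, Rdh11, Aurka and Cul4a, which rose. They also include Slc25a31, Ebf1 and Tex101, which were not called, and Morf4l2, which fell.
Tekt3, chr11:63061599-63061658, plus strand: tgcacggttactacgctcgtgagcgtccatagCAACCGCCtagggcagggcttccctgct
Mgat4d, chr8:83348367-83348426, plus strand: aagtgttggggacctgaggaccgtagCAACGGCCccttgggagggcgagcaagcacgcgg
Catsperb, chr12:101404546-101404605, plus strand: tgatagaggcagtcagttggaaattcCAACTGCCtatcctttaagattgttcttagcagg
Piwil1, chr5:128736145-128736204, plus strand: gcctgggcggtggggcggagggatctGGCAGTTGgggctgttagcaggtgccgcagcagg
Rfx2, chr17:56831152-56831211, minus strand: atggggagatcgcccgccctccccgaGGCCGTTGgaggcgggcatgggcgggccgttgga
Lyar, chr5:38220373-38220432, plus strand: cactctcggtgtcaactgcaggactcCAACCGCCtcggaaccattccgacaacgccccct
Cul4b, chrX:38576387-38576446, minus strand: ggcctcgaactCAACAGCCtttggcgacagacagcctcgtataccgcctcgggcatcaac

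Of the printed windows, the capitals of Piwil1 and Rfx2 read in the direction of the gene, and those of the others are the reverse complement. A second copy of the word stands in lower case near the end of the Rfx2 window. In all, 11 words for different factors were searched on both strands. GTTGCCATG, the letters of an RFX site, stood in 0.869% of all promoters, in 1.64% of those of genes that rose and in 0.304% of those of genes that fell. TGACGTCA, the CREM and CREB word, stood in 2.93% and 2.53% of promoters of genes that rose and fell, and CNCCTCAG, a word of STRA8, in 9.35% and 9.32%. TTTCCCGC, an E2F word, stood in 1.49% and 2.62%. TACAATGT, a DMRT word, stood in 0.568% and 0.183%, while Dmrt1 itself fell. Among the 450 and 449 promoters matched to the 500 largest rises and falls it stood in 0.222% and 0.223%, which are very few promoters. TGANTCA, an AP-1 word, stood in 5.16% of all promoters. It stood in 7.78% among the 500 largest rises and 5.57% among the 500 largest falls. The ETS, CCAAT, E-box and PU.1 words stood in 7.95%, 10.3%, 38.3% and 2.57% for rises and 6.54%, 10.8%, 41.9% and 3.44% for falls. These are descriptions of letters, with no test, and a match is not a shown binding site.

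Genes of the sperm flagellum rose almost without exception. Of 48 tested, 46 rose and 0 fell, with a median change of 4.28. All 48 were higher in both MI libraries than in both spermatogonia libraries, where 5116 of all 13099 genes were. The median flagellum gene held 1.36 and 2.10 FPKM in the spermatogonia libraries and 48.9 and 58.3 in the MI libraries. Rsph1, a radial spoke protein, went from 1.46 and 4.01 to 310 and 283 FPKM. Dnah8, an outer dynein arm motor, went from 6.63 and 8.08 to 582 and 834 FPKM. Ccdc39, a ruler protein of the axoneme, held 2.93 and 5.55 FPKM in spermatogonia and 236 and 338 in MI spermatocytes. The 2 genes not called were Hspb11 and Akap4, an X-linked fibrous sheath gene at 4.01 and 4.65 against 13.96 and 13.3 FPKM.

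Transcripts of the acrosome and of sperm ion channels followed. Of 41 genes of the acrosome and fertilization, 29 rose, 1 fell and 11 were not called (median 1.86). Adam2, a subunit of the sperm surface protein fertilin, held 0.548 and 1.09 FPKM in spermatogonia and 113 and 129 in MI spermatocytes, and Crisp2, an acrosomal and tail protein, 10.1 and 17.2 against 925 and 1120. Of 16 sperm calcium and ion transport genes, 15 rose (median 3.69). Catsper2, a pore subunit of the sperm calcium channel, went from 4.37 and 5.93 to 215 and 267 FPKM, and Slc9c1, the sperm sodium-proton exchanger, from 0.276 and 0.693 to 40.3 and 56.4. Hvcn1, a proton channel, was the gene not called, at 1.47 and 2.31 against 0.675 and 0.674 FPKM.

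Markers of later spermatids were partly higher. Of 16 elongating spermatid markers, 6 rose, 0 fell and 10 were not called (median 1.11), and the rises numbered 3 without MI replicate 1. Odf2, an outer dense fibre and centrosome protein, went from 54.2 and 82.3 to 936 and 1079 FPKM, and Hspb9, a testis heat shock protein, from 0 and 4.61 to 80.7 and 82.8. Prm2, a protamine that packs sperm DNA, held 10.6 and 27.7 FPKM in spermatogonia and 10.8 and 5.39 in MI spermatocytes, so its libraries overlapped. Tnp2, a transition protein, held 0.589 and 5.90 against 8.77 and 6.76 FPKM, a call (adjusted p = 0.033) lost in 7 of the alternatives. Round spermatid markers were more advanced, since 19 of 23 rose and 0 fell (median 2.49), led by Spata16, an acrosome formation gene, at 3.65 and 5.17 against 382 and 486 FPKM.

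**Figure D2:**
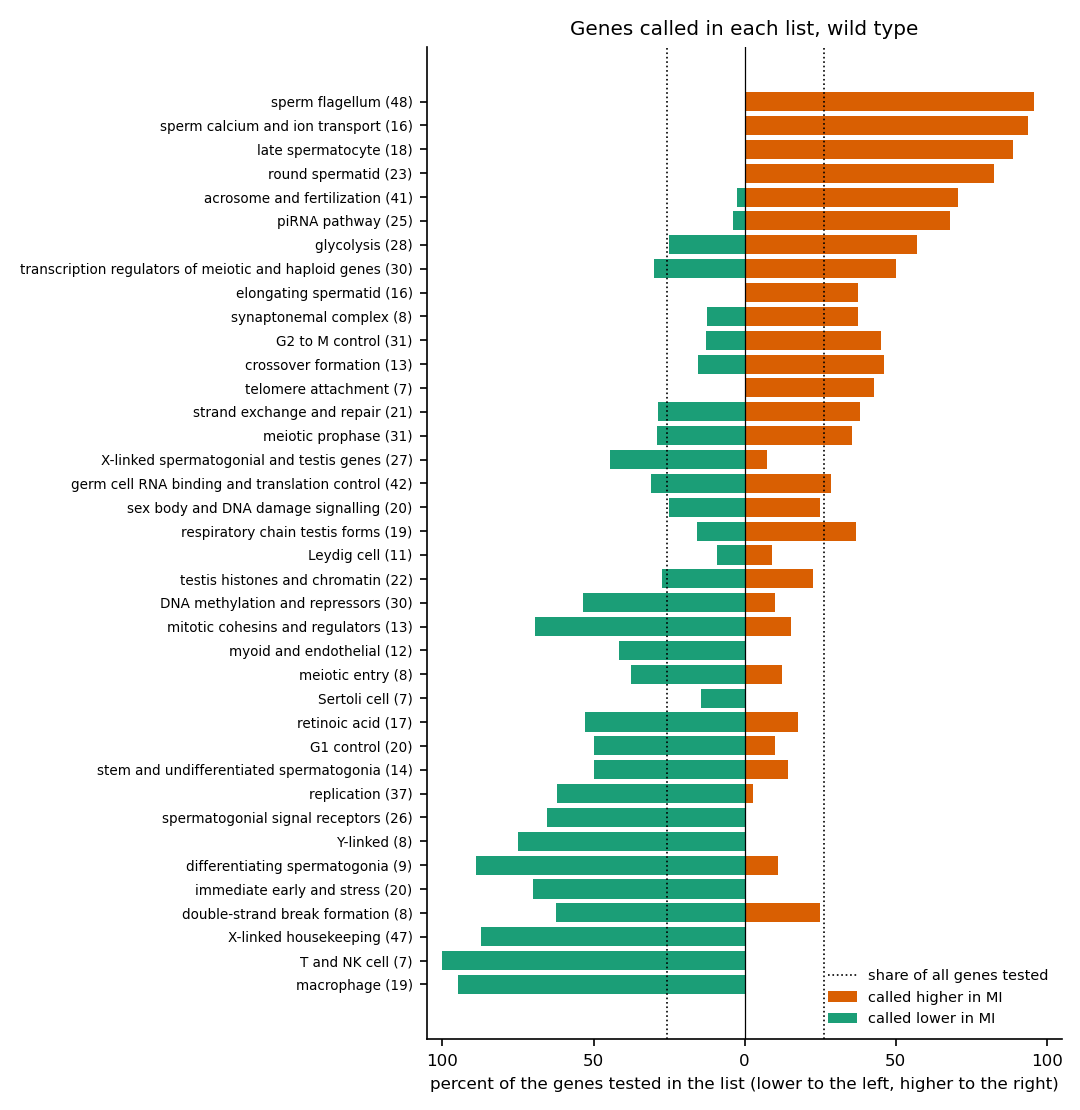
Share of the tested genes of each list that were called higher (right, orange) or lower (left, green) in wild-type MI spermatocytes, with the number tested in brackets and dotted lines at the shares over all genes, 26.3% and 25.7%. Lists are ordered by their median change, from flagellum genes at the top to macrophage markers at the bottom.

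Meiotic prophase genes split in their direction, and several were already abundant in the spermatogonia libraries. Of 31 tested, 11 rose, 9 fell and 11 were not called, where 26.3% of all genes rose and 25.7% fell. The median was 0.22, or −0.15 under quantile normalization. The list took 0.643% and 0.685% of all FPKM in the spermatogonia libraries and 0.707% and 0.547% in the MI libraries. Stem and undifferentiated markers took 0.119% and 0.116% in the spermatogonia libraries. Whether these libraries held cells already in meiosis beside mitotic ones was not tested. Spo11, the enzyme that makes meiotic breaks, held 0.668 and 0.415 FPKM in spermatogonia and 9.94 and 15.4 in MI spermatocytes. Sycp2, of the chromosome axis, rose from 29.6 and 44.5 to 152 and 203 FPKM, and Syce1, of the central element, from 41.5 and 31.6 to 155 and 151. Hormad1, an axis protein, rose from 35.1 and 40.6 to 221 and 129 FPKM. Syce2, also of the central element, instead fell from 158 and 114 to 50.3 and 27.3 FPKM, and Tex11, an X-linked crossover gene, from 85.2 and 108 to 17.2 and 9.47. Sycp1, the transverse filament protein, held 77.5 and 95.5 against 132 and 63.0 FPKM, and these libraries overlapped. Smc1b, a meiotic cohesin subunit, was at 186 and 232 against 231 and 224 FPKM.

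Steps within prophase were described by smaller lists, which were not compared with each other by a test. Of 8 genes of break formation, 5 fell and 2 rose (median −1.86). Prdm9, which marks break sites, fell from 10.9 and 17.6 to 2.42 and 1.30 FPKM, Mei1 from 6.60 and 7.69 to 0.772 and 1.29, and Zcwpw1, a reader of the PRDM9 mark, from 30.6 and 36.0 to 8.68 and 7.93. Of 13 crossover genes, 6 rose and 2 fell (median 0.59). Cntd1, a cyclin-like crossover protein, rose from 6.00 and 7.13 to 98.7 and 107 FPKM, Mlh3, of the crossover nuclease, from 15.9 and 18.4 to 56.2 and 70.5, and Prr19 from 8.60 and 6.03 to 31.1 and 42.2. Of 7 genes that attach telomeres to the nuclear envelope, 3 rose and 0 fell, and Spdya, an activator of CDK2, rose from 12.5 and 10.9 to 187 and 185 FPKM. Of 21 strand exchange and repair genes, 8 rose and 6 fell, where 26.3% of all genes rose and 25.7% fell. Psmc3ip rose from 39.6 and 43.2 to 177 and 186 FPKM, while Brca1 fell from 38.97 and 47.1 to 11.2 and 8.06. The 6 falls of this list were 2 without MI replicate 2, and the 8 rises were 5 without spermatogonia replicate 2.

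Cohesins are the rings that hold sister chromatids. Of 13 mitotic cohesins and regulators, 9 fell and 2 rose (median −0.91). Their summed level was 517 and 658 FPKM in spermatogonia and 627 and 664 in MI spermatocytes, whose totals were larger. As a share of all FPKM this was 0.263% and 0.329% in spermatogonia and 0.226% and 0.220% in MI spermatocytes. Rad21 fell from 86.1 and 100.6 to 35.4 and 28.3 FPKM, Smc3 from 73.9 and 104 to 35.3 and 25.8, and Esco2, a cohesin acetyltransferase, from 54.6 and 70.5 to 13.8 and 9.29. Nipbl, the cohesin loader, went the other way, from 27.2 and 34.1 to 259 and 308 FPKM (log2 change 3.17, with an SE of 0.40 and a limma adjusted p = 2.4e-05). Of the 4 meiotic cohesins, Rad21l fell from 8.35 and 11.2 to 3.36 and 1.53 FPKM and Rec8 from 4.53 and 2.67 to 1.34 and 0.274, and 1 of these falls was left without MI replicate 2 or spermatogonia replicate 1. Stag3 was not called (adjusted p = 0.059), at 95.8 and 104 against 205 and 236 FPKM.

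The machinery of S phase was lower in MI spermatocytes. Of 37 replication genes, 23 fell, 1 rose and 13 were not called (median −1.40), and 0 rose when any of the 4 libraries was left out. Mcm2, of the replicative helicase, fell from 60.1 and 46.0 to 6.71 and 5.21 FPKM, Mcm4 from 44.0 and 51.8 to 7.95 and 4.04, and Cdt1, the licensing factor, from 21.7 and 17.2 to 3.18 and 1.62. Pcna, the sliding clamp, which also serves repair, stayed at 159 and 184 against 166 and 152 FPKM. Of 20 genes of G1 control, 10 fell and 2 rose (median −1.19). The falls held the cyclin Ccnd1, from 78.8 and 85.9 to 17.3 and 14.1 FPKM, and the activators E2f2, from 7.13 and 12.3 to 0.470 and 0.277, and E2f3, from 12.8 and 11.9 to 1.11 and 0.687. The rises were inhibitors of CDK4 and CDK6: Cdkn2c went from 13.1 and 17.3 to 98.7 and 107 FPKM and Cdkn2d from 0.586 and 1.43 to 13.2 and 14.4.

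Genes of the division itself were mixed, where 26.3% of all genes rose and 25.7% fell. Under quantile normalization, which gave 3116 rises among 13099 genes, the rises of the G2 to M list were near that share. Of 31 genes of the G2 to M step, 14 rose and 4 fell (median 0.60), and the rises numbered 8 under quantile normalization, 8 without MI replicate 1 and 9 without either spermatogonia replicate. Ccna1, the meiotic A-type cyclin, went from 1.84 and 0.883 to 77.6 and 63.4 FPKM, while Ccna2, the mitotic form, fell from 77.0 and 97.6 to 17.3 and 11.9. Aurka, a spindle kinase, rose from 14.9 and 11.1 to 135 and 147 FPKM, Nek2 from 17.9 and 22.3 to 159 and 184, and Fbxo43, which restrains the anaphase-promoting complex in meiosis, from 1.08 and 1.32 to 30.1 and 40.0. Ccnb1, a mitotic and meiotic cyclin, was level, at 19.98 and 18.7 against 17.4 and 16.5 FPKM.

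Spermatogonial genes fell in part. Of 9 markers of differentiating spermatogonia tested, 8 fell and 1 rose (median −1.73). Kit, the receptor of stem cell factor, fell from 31.4 and 34.2 to 8.29 and 6.30 FPKM, Dnmt3b, a de novo DNA methyltransferase, from 24.7 and 22.9 to 7.42 and 5.65, and Crabp1, a retinoid-binding protein, from 169 and 104 to 25.1 and 9.92. Of 26 markers of stem and undifferentiated spermatogonia 14 were tested, and 7 fell and 2 rose (median −1.29), the falls numbering 4 without MI replicate 2. Epcam, an adhesion protein, fell from 81.8 and 87.6 to 22.4 and 15.1 FPKM and Foxo1 from 30.1 and 26.8 to 11.03 and 7.72. Id4, used as a stem cell marker, rose instead, from 2.58 and 1.46 to 18.2 and 20.3 FPKM. Uchl1 (adjusted p = 0.061) was not called, at 19.2 and 17.4 against 6.79 and 3.40 FPKM.

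Transcripts of many signal receptors fell with these markers. Of 26 receptors known from spermatogonia, 17 fell and 0 rose (median −1.42), among them Fgfr3, from 10.4 and 11.3 to 1.81 and 3.07 FPKM, and Bmpr2, from 19.5 and 30.7 to 8.13 and 4.65. Csf1r and Cxcr4, also on this list, are expressed by immune cells too, and Csf1r went from 15.2 and 35.1 to 0.121 and 0.174 FPKM. Of 17 retinoic acid genes, 9 fell and 3 rose (median −1.19). The receptor Rara fell from 17.1 and 15.97 to 4.07 and 2.66 FPKM and Stra8, a retinoic acid target needed for meiotic entry, from 18.0 and 13.0 to 5.46 and 3.03. Rdh11, a retinal reductase, rose from 1.23 and 0.316 to 60.4 and 62.4 FPKM, and Lrat, which stores retinol as esters, from 0.986 and 1.40 to 8.54 and 15.6. Of 30 genes of DNA methylation and repression, 16 fell and 3 rose, the falls numbering 10 without MI replicate 2 and the rises 1 there and under quantile normalization. Dnmt3a fell from 24.8 and 31.0 to 5.78 and 5.596 FPKM and Ehmt1, a histone H3K9 methyltransferase, from 27.0 and 27.0 to 5.69 and 4.02.

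Many piRNA pathway genes rose. Of 25 piRNA pathway genes, 17 rose, 1 fell and 7 were not called (median 1.60). Piwil1 (MIWI), the PIWI protein of the pachytene stage, went from 5.86 and 4.11 to 131 and 174 FPKM, and Tdrd5 from 12.6 and 11.7 to 96.8 and 141. Ddx25, an RNA helicase of the chromatoid body, rose from 5.94 and 6.26 to 80.3 and 117 FPKM. Mov10l1, a helicase that starts piRNA making, was level, at 71.2 and 76.2 against 86.1 and 68.1 FPKM. Of 42 other RNA-binding and translation control genes, 12 rose and 13 fell, shares near those over all genes, and the falls numbered 7 without MI replicate 2 and 8 without either spermatogonia replicate. Ybx2, which stores mRNAs, rose from 11.4 and 12.2 to 344 and 457 FPKM, and Papolb, a testis poly(A) polymerase, from 4.95 and 9.29 to 286 and 420. Dazl, a translation activator of early germ cells, fell from 260 and 293 to 132 and 58.6 FPKM.

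Genes of energy metabolism went both ways. Of 28 genes of glycolysis and its transporters, 16 rose and 7 fell (median 1.40), the falls numbering 2 without MI replicate 2 and 4 without spermatogonia replicate 1. Slc2a3, a glucose transporter, went from 9.65 and 11.5 to 812 and 1156 FPKM (log2 change 6.39, with an SE of 0.49 and a limma adjusted p = 1.2e-06), and Slc2a5, a fructose transporter, from 0.402 and 0.548 to 94.2 and 110. Pgam2, a phosphoglycerate mutase, rose from 8.63 and 19.0 to 511 and 768 FPKM, and Ldha, the common lactate dehydrogenase subunit, from 7.28 and 6.09 to 176 and 222. Aldoa, an aldolase, held 18.2 and 7.47 against 17.2 and 14.9 FPKM and Pkm, a pyruvate kinase, 11.6 and 7.25 against 4.57 and 3.07, and neither was called. The list took 0.129% and 0.108% of all FPKM in spermatogonia and 1.21% and 1.26% in MI spermatocytes. Of 19 respiratory chain genes with testis forms, 7 rose and 3 fell. Cox8c rose from 6.14 and 0.502 to 203 and 178 FPKM while Cox8a, its common form, fell from 56.9 and 45.4 to 11.6 and 3.04.

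The X chromosome stood apart. Of 503 X-linked genes tested, 272 (54.1%) fell, 15 rose and 216 were not called, with a median change of −1.23, while among 12559 autosomal genes 24.5% fell and 27.2% rose. The X share of all FPKM was 2.46% and 2.68% in the spermatogonia libraries and 0.593% and 0.333% in the MI libraries. The median X-linked gene went from 3.96 and 4.07 to 1.52 and 1.003 FPKM, and the median autosomal gene from 5.90 and 5.82 to 6.14 and 5.87. On single autosomes between 21.5% and 28.7% of genes fell. Whether fewer transcripts per cell or fewer cells that express a gene lie behind a lower level cannot be told apart in bulk samples.

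Genes of at least 10 FPKM in spermatogonia were looked at on their own. Such genes are chosen for a high level in the group they are compared with, which favours falls, so their values are a description beside autosomal genes chosen the same way. Of 147 such X-linked genes, 137 fell and 0 rose, and of 4479 such autosomal genes 36.7% fell. Genes were also chosen by a mean of at least 10 FPKM over the 4 libraries, a choice made after seeing the data. There 77 of 82 X-linked genes fell and 0 rose (median −2.12), while 22.4% of 5078 autosomal genes fell and 39.6% rose (median 0.35). In the set chosen by spermatogonia level, the X-linked median was −2.06 with quartiles of −2.31 and −1.77. The autosomal median of that set was −0.39 with quartiles of −1.30 and 0.53. Its median X-linked gene kept 24.9% of its spermatogonia level in MI replicate 1 and 16.03% in MI replicate 2. The median autosomal gene of that set kept 76.1% and 73.7%. Along the chromosome, the medians of its X-linked genes in 9 bins of 20 Mb, holding 9 to 26 genes each, lay between −2.23 and −1.83. MI replicate 1, with the higher X-linked levels, also held more Hist1h2aa (1394 against 683 FPKM) and more of the immediate early and stress list (503 against 176 FPKM in sum). The part of these values in the X-linked difference between the MI libraries was not tested.

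**Figure D3:**
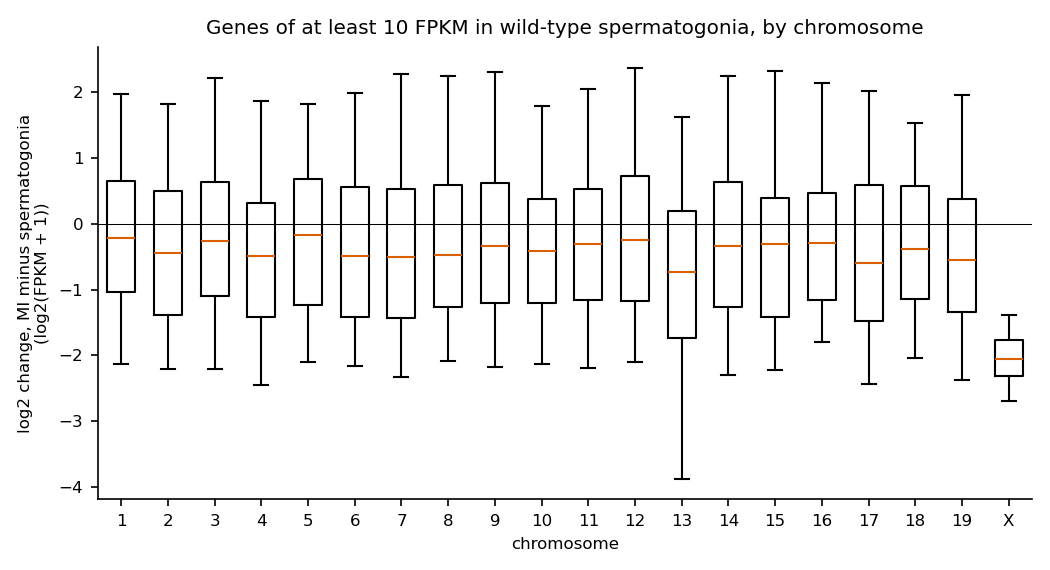
Log2 change (MI minus spermatogonia, on log2(FPKM + 1)) of genes of at least 10 FPKM in wild-type spermatogonia, by chromosome, with boxes from the lower to the upper quartile, a line at the median and whiskers to the 5th and 95th percentiles. The X chromosome box, at a median of −2.06, lies below all 19 autosomes.

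By level, the X-linked falls reached abundant housekeeping genes. Of 47 genes of the X-linked housekeeping list, 41 fell and 0 rose. Tmsb4x, an actin-binding peptide outside that list, had the largest X-linked fall and went from 86.4 and 47.1 to 9.88 and 3.69 FPKM (log2 change −3.18, with an SE of 0.50 and a limma adjusted p = 0.00016), and Rpl39, a ribosomal protein of the list, fell from 124 and 118 to 23.0 and 7.26. Among the largest X-linked falls outside that list, Prdx4, a peroxidase of the endoplasmic reticulum, fell from 84.2 and 77.8 to 18.2 and 5.56 FPKM, and Eif1ax, an initiation factor, from 69.2 and 73.6 to 13.2 and 6.82. Hcfc1, a chromatin adaptor on the list, fell from 72.8 and 75.8 to 14.9 and 10.3 FPKM. Of 27 X-linked spermatogonial and testis genes tested, 12 fell, 2 rose and 13 were not called (median 0.14, or −0.03 under quantile normalization). The MI libraries lay above both spermatogonia libraries for 10 of the 27, near the share over all genes (5116 of 13099). Over all 503 X-linked genes, 15 rose and the median was −1.23. Both spermatogonia libraries were listed at 0 for 10 of the 27. The falls included Taf7l, from 109 and 121 to 27.2 and 18.8 FPKM, and Nxf2, an mRNA export factor, from 56.5 and 61.3 to 13.6 and 8.92. Outside that list, Tex13, another X-linked testis gene, fell from 41.5 and 52.5 to 7.77 and 3.92 FPKM. Akap4 and Dynlt3 of the list were not called, with Dynlt3 at 12.1 and 12.3 against 8.23 and 2.62 FPKM.

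Over all 503 X-linked genes, 216 were not called. The 10 genes of at least 10 FPKM in spermatogonia that were not called, named after their values were seen, were Bgn, Ccnb3, Ddx3x, Dynlt3, Elf4, Gm1141, Pgrmc1, Rbbp7, Rpgr and Slc25a5. Bgn, a matrix proteoglycan made by connective tissue cells, held 24.04 and 40.2 against 51.7 and 34.7 FPKM, and Rbbp7, a histone chaperone, 64.5 and 70.5 against 47.9 and 18.2. The 15 rises all ended low, with MI means from 0.973 to 4.24 FPKM, and they numbered 5 or 6 when any of the 4 libraries was left out, 45 with a pseudocount of 0.1 and 1 with a pseudocount of 5. Akap14, of the sperm fibrous sheath family, led them, from 0 and 0.347 to 4.54 and 3.95 FPKM. Of 8 Y-linked genes tested, 6 fell and 0 rose, among them Uba1y, from 42.7 and 40.2 to 9.03 and 6.32 FPKM. Zfy1 and Zfy2, zinc finger genes of meiotic divisions, were not called, with Zfy2 at 3.09 and 3.71 against 4.48 and 2.93 FPKM.

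Sex body factors themselves changed at shares near those over all genes, which were 26.3% higher and 25.7% lower. Of 20 tested, 5 rose, 5 fell and 10 were not called, with 8 falls under quantile normalization and 3 rises without MI replicate 1. Mdc1, which spreads the DNA damage mark over the X and Y, rose from 45.6 and 49.9 to 182 and 218 FPKM. Atm, the break-sensing kinase, fell from 41.7 and 48.8 to 8.11 and 7.36 FPKM. H2afx, the histone that carries the mark, held 125 and 103 against 143 and 75.7 FPKM, which overlapped.

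Autosomal partners of X-linked genes went the other way. Of 18 tested pairs, the X-linked form fell in 15 and rose in 0, the autosomal form rose in 14 and fell in 0, and both happened in 12. Without MI replicate 2 the calls of Rpl10, Rpl39, Cetn2, G6pdx, Mcts1, Naa10, Morf4l2 and the autosomal Cul4a were lost. The call of Pgk1 was lost without MI replicate 1 and without spermatogonia replicate 1. In spermatogonia the mean of the X-linked form was the higher of the pair in 10 of 18, and in MI spermatocytes in 0 of 18. Pgk1 and Pgk2, of phosphoglycerate kinase, show the largest such rise: Pgk1 fell from 4.33 and 2.27 to 0.550 and 0.931 FPKM and Pgk2 rose from 5.72 and 5.76 to 388 and 401. Rpl10, a ribosomal protein, fell from 80.1 and 68.5 to 23.6 and 11.1 FPKM, and Rpl10l rose from 7.94 and 8.97 to 118 and 72.1. Cetn2, a centriole protein, fell from 1.72 and 3.45 to 0.738 and 0.112 FPKM, and Cetn1 rose from 0.466 and 0.885 to 62.6 and 60.6. Ddx3x (adjusted p = 0.054) was not called, at 21.6 and 16.01 against 9.78 and 4.24 FPKM, and D1Pas1, its autosomal copy, rose from 8.25 and 6.48 to 76.3 and 79.9.

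Other pairs were less complete. Pdha1, of pyruvate dehydrogenase, was not called, at 5.63 and 4.67 against 3.93 and 1.36 FPKM, while Pdha2 rose from 4.94 and 3.65 to 99.6 and 83.6. Slc25a31, the germ cell adenine nucleotide carrier, was high in both cell types, at 40.3 and 43.2 against 43.6 and 28.7 FPKM, and so was not called. Rbmxl2 was not called either, at 7.09 and 4.90 against 8.42 and 2.90 FPKM. Copies of high sequence likeness, such as Rpl39 and Rpl39l, could share reads, so the levels within a pair are uncertain.

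**Figure D4:**
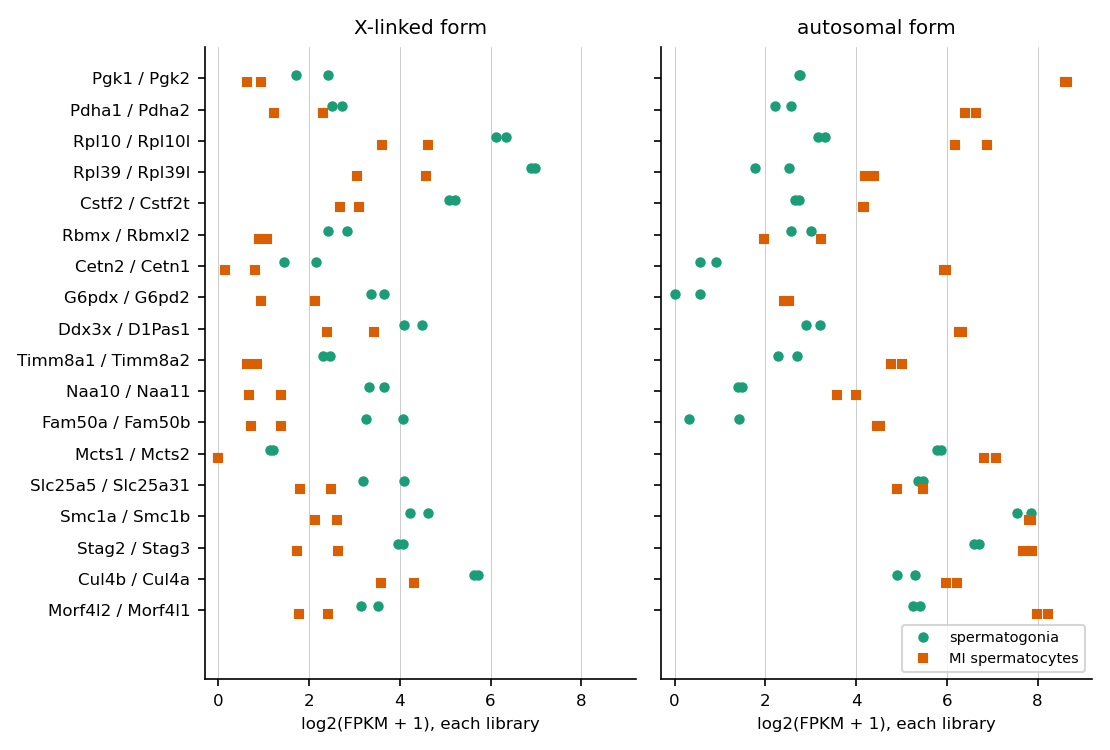
Level of the X-linked form (left) and of its autosomal form (right) of 18 gene pairs in each wild-type library, as log2(FPKM + 1), with circles for spermatogonia and squares for MI spermatocytes. Squares lie to the left of circles for the X-linked forms and to the right for most autosomal forms, apart from Rbmxl2, Slc25a31 and Smc1b.

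Of 23 tested pairs with both members on autosomes, the germ cell form rose in 20 and fell in 3, and the broadly expressed form fell in 12 and rose in 7. Rad21 is the broad form of both the Rec8 and the Rad21l pair, so its fall is counted for each. Kpna6, listed as the germ cell form beside Kpna2, held 15.7% and 12.7% of the pair's FPKM in spermatogonia and 9.95% and 13.8% in MI spermatocytes. The mean of the broad form was the higher of the pair in 18 of 23 in spermatogonia and in 8 of 23 in MI spermatocytes. Gapdh fell from 63.7 and 41.7 to 12.2 and 10.7 FPKM while Gapdhs, the sperm form, rose from 1.69 and 2.30 to 8.68 and 6.07. Hspa8, a chaperone, fell from 257 and 273 to 100.6 and 63.8 FPKM while Hspa2, its germ cell relative, rose from 18.2 and 21.1 to 645 and 659. Psma7, a proteasome subunit, fell from 104 and 106 to 17.9 and 14.3 FPKM while Psma8, the germ cell subunit, rose from 5.63 and 7.26 to 135 and 130. The 3 germ cell forms that fell were Rec8, Rad21l and Dmc1, the meiotic strand exchange enzyme, at 9.80 and 11.7 against 3.59 and 2.22 FPKM.

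Histone genes named here were mostly lower. Hist1h1t, the testis linker histone, rose from 6.08 and 6.79 to 159 and 203 FPKM, while the somatic linkers Hist1h1c and Hist1h1e fell, Hist1h1c from 227 and 240 to 20.1 and 10.3 and Hist1h1e from 165 and 242 to 18.4 and 11.8. Hist1h2bm, a core histone, fell from 779 and 813 to 30.9 and 18.8 FPKM and Hist1h2ak from 557 and 335 to 23.2 and 7.73. Brdt, a bromodomain protein of meiosis, rose from 20.3 and 32.1 to 271 and 285 FPKM. Of the 22 testis histones and chromatin genes tested, 5 rose and 6 fell, shares near those over all genes, and quantile normalization gave 10 falls. H3f3a, a replacement histone, held 86.1 and 89.7 against 119 and 81.8 FPKM.

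Many of the largest falls were of immune genes, whose transcripts the spermatogonia libraries held. Of 19 macrophage markers, 18 fell and 0 rose (median −4.21), and their sum was 531 and 904 FPKM in the spermatogonia libraries, or 0.269% and 0.453% of all FPKM, against 15.99 and 14.9 in the MI libraries. Fcer1g, an immune receptor chain, fell from 37.1 and 84.5 to 0.811 and 0.434 FPKM, H2-Aa, a class II antigen-presenting chain, from 40.5 and 72.1 to 0.742 and 0.443, and, outside that list, Cxcl2, a chemokine, from 44.2 and 84.9 to 0.331 and 0.543. Cd52, also outside it and a leukocyte surface peptide, went from 40.6 and 25.2 FPKM to 0 in both MI libraries. Of 15 T and NK cell markers 7 were tested and all 7 fell, with sums of 104 and 33.3 against 0.442 and 0.284 FPKM. Cd3e, of the T cell receptor complex, went from 40.8 and 12.1 to 0.224 and 0.179 FPKM. Aif1, the macrophage marker not called, held 2.34 and 2.58 against 6.87 and 5.45 FPKM.

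Other somatic markers changed less. Myoid and endothelial markers summed to 386 and 243 FPKM in spermatogonia and 209 and 64.1 in MI spermatocytes, and 5 of 12 fell, with Acta2, a smooth muscle actin, going from 45.4 and 20.1 to 3.20 and 0.797. Those 5 falls were 2 without MI replicate 2 and 3 without either spermatogonia replicate. Dcn, a matrix protein, was high in both cell types, at 267 and 158 against 161 and 34.0 FPKM. Sertoli cell markers summed to 61.6 and 44.6 against 28.8 and 19.2 FPKM over 7 of 13 tested, with 1 fall (0 without MI replicate 2 or spermatogonia replicate 1). Leydig cell markers summed to 91.3 and 39.8 against 45.1 and 34.8 FPKM, with 1 rise (0 without MI replicate 1 or spermatogonia replicate 1) and 1 fall of 11. Of 7 erythroid markers 0 were tested, and of 6 B cell markers Ebf1 and Pax5 were tested and not called, with Pax5 at 0.190 and 1.35 against 0.324 and 1.47 FPKM. The part of these cells in the falls of receptors and of other genes they also express was not tested.

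Immediate early and stress genes, which respond to handling of tissue, were lower too. Of 20 tested, 14 fell and 0 rose (median −1.79), but the count was 3 without MI replicate 2, 6 without spermatogonia replicate 1 and 9 without spermatogonia replicate 2. Their sum was 1010 and 1079 FPKM in spermatogonia and 503 and 176 in MI spermatocytes. Junb fell from 51.2 and 38.1 to 13.4 and 4.39 FPKM and Zfp36 from 230 and 284 to 105.2 and 32.4. Fos was not called, at 90.5 and 77.6 against 58.0 and 17.6 FPKM. The MI libraries thus differed from each other more than the spermatogonia libraries did in these genes.

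The Tex10-deficient libraries of the same cell types gave a second look at the step. The wild-type changes did not use them, but the spread behind the wild-type p-values did. They were grouped by title, because the cell type field names another type for 6 of the 8 Tex10-deficient libraries. In them 3477 genes (26.5%) were higher and 3234 (24.7%) lower in MI spermatocytes. Of the 3439 wild-type rises, 2904 (84.4%) were also called higher there and 3 lower, which is 83.5% of the Tex10-deficient rises. Of the 3361 wild-type falls, 2602 (77.4%) were also called lower and 1 higher, which is 80.5% of the Tex10-deficient falls. Directions matched for 98.6% of the rises and 98.5% of the falls, called or not. The changes of the 2 genotypes share no library, but both were tested with 1 estimate of the spread from all libraries of the fit. Of the 503 X-linked genes, 244 fell and 69 rose in the Tex10-deficient libraries (median −0.93), where 23.7% of autosomal genes fell and 27% rose.

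**Figure D5:**
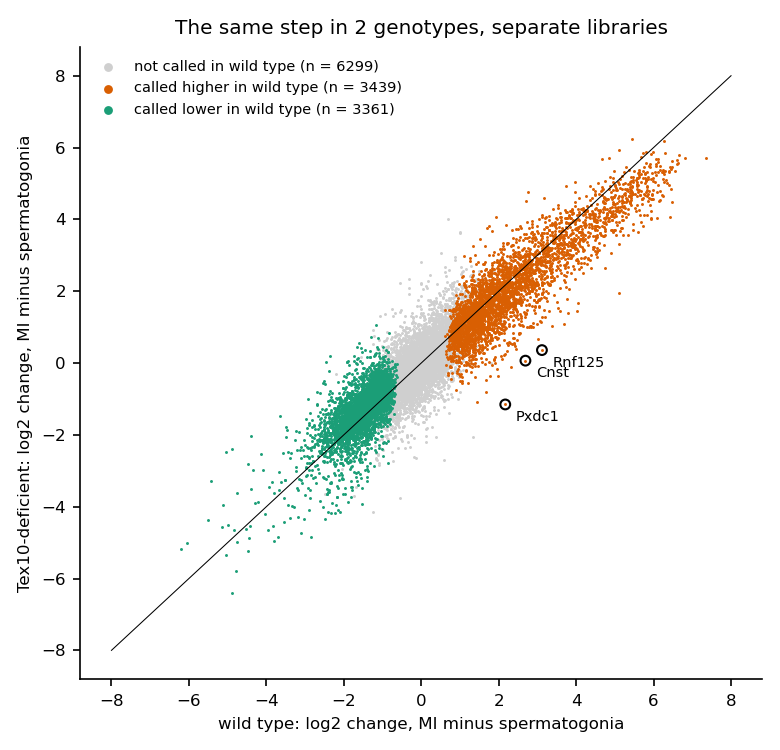
Log2 change from spermatogonia to MI spermatocytes of each gene in the wild type (horizontal) and in the Tex10-deficient libraries (vertical), coloured by the wild-type call, with a line of equal change. Most genes lie along the line, and the 3 circled genes, Rnf125, Cnst and Pxdc1, are those whose change differed between genotypes.

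The change itself differed between genotypes for 3 of 13099 genes (0.0229%), all with a smaller or opposite change in the Tex10-deficient libraries, and 723 genes had an unadjusted p under 0.05. Rnf125, a ubiquitin ligase (XLOC_009727), rose in the wild type from 4.89 and 3.19 to 37.6 and 47.2 FPKM, and stood at 9.54 and 9.91 against 13.1 and 12.5 in the Tex10-deficient libraries. Cnst (XLOC_000598, chromosome 1, 179546370 to 179627478), of connexin transport, rose from 4.33 and 4.56 to 28.7 and 40.6 FPKM in the wild type, and stood at 5.39 and 7.25 against 6.91 and 6.31. Pxdc1 (XLOC_005675, chromosome 13, 34627834 to 34653486) rose from 1.15 and 0.493 to 5.62 and 8.81 FPKM in the wild type, and fell from 3.22 and 2.04 to 0.475 and 0.756 in the Tex10-deficient libraries. The limma adjusted p of the difference was 0.048 for each, and between 0.019 and 0.52 over 18 alternatives. Chdh, choline dehydrogenase, was next by p, with wild-type values of 1.07 and 0.495 against 53.3 and 65.9 FPKM and Tex10-deficient values of 2.17 and 0.471 against 7.77 and 6.83 (adjusted p = 0.087, from 0.0082 to 0.68 over 18 alternatives). The count of 3 was 0 in 7 of the 8 fits that left out a library of these groups and 14 without wild-type spermatogonia replicate 1.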

How the data were processed

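Sorted testis cells were measured by poly(A)-enriched RNA sequencing in 16 libraries, 2 for each of 8 groups. Per the submitters' processing notes STAR 2.7.6a and Cufflinks 2.2.1 were used with build mm10, and cutadapt, FastQC 0.10.1 and Trim Galore 0.6.3 are named as well. No annotation, strand setting or scaling across samples is named in the labels. The authors deposited FPKM with 1 added, and the 1 was subtracted. Read numbers are unknown, so no counting intervals are given. Of the values, 3.33% were 0, and 1 gene with a cell that was not a number was left out.

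The 13099 genes that reached 1 FPKM in 2 or more libraries were fitted as log2(FPKM + 1) in 1 limma model of 8 groups by title (limma 3.58.1, R 4.3.3, eBayes with a trend, 8 residual degrees of freedom). The steps were tested on simulated data. Contrasts were MI minus spermatogonia in each genotype and their difference. Gene positions came from GENCODE M21 and RefSeq by symbol, with 29 genes unplaced; the listed X-linked gene Gykl1 lies on an autosome and was not counted with the X. The 41 gene lists and 43 paralog pairs (41 with both members tested) were chosen with earlier results of these data known.

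The text names, by rule, the 10 largest rises and falls of at least 20 FPKM with groups apart. Symbols that are Gm or LOC numbers, Rik names or AC or AL clones were left out there. The rule also took up to 6 called and 2 uncalled members of each list, pair members and the largest X-linked changes. It further took the 5 most abundant genes of each cell type, the 6 smallest p for the difference between genotypes, and Tex10. Where a list or a group was longer, only some of these are named. Genes outside the rule, besides those said to be so, are Bgn, Ccnb3, Elf4, Gm1141, Rbbp7 and Rpgr. Alternatives were other pseudocounts, filters, scalings, variance models and sample sets, and each library left out. Fits without a Tex10-deficient library and X-linked genes chosen by their mean over the 4 libraries were added after seeing the data. Tables and figures used Python 3.11.15, pandas 2.3.3 and matplotlib 3.10.9.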

Additional observations from a re-analysis of the deposited data

Results flagged for a closer look

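The change from spermatogonia to MI spermatocytes differed between the genotypes, by the test of the difference itself, for 3 genes. Tex10-deficient minus wild-type change was −2.76 for Rnf125, −2.62 for Cnst and −3.32 for Pxdc1 on the log2 scale, each with a limma adjusted p of 0.048. The number of such genes ran from 0 to 14 over 18 alternatives.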

How the results depend on the processing

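The wild-type count of 6800 genes lay between 4711 and 7817 in 16 of 17 alternatives, and the X-linked count of 287 between 198 and 336. Grouping the Tex10-deficient libraries by the cell type field gave 3008 genes and 119 X-linked genes. That setting puts libraries with different titles in the same group, and which label is right was not tested. The Tex10-deficient count of 6711 lay between 4808 and 7259. The genotype difference of 3 genes was 0 with a pseudocount of 0.1, without the trend and with the replicate block, 1 with median-of-ratios scaling, 5 with array weights, 7 with quantile normalization and 11 with a pseudocount of 5, and ran from 0 to 14 when 1 library was left out. The cause was not tested. With the replicate block the wild-type count was 7335 (X-linked 316) and the Tex10-deficient count 7259. The labels do not say that replicate numbers pair the samples: the replicate differences correlated across genes with r = 0.143 for the 2 wild-type groups compared, from 0.143 to 0.358 over the wild-type groups and from −0.082 to 0.418 over the Tex10-deficient groups. Of 260 named genes called in the wild type, 151 were called under every alternative, and 106 lost the call with the field grouping, 33 without MI replicate 2 and 19 without spermatogonia replicate 1. Under quantile normalization Eif4g2 (−0.68), H3f3a (−0.90) and Mov10l1 (−0.94), not called otherwise, were called lower. Median signs of 4 lists depended on the scaling (meiotic prophase, synaptonemal complex, RNA binding and X-linked testis genes). Depth is unknown, so values near 0 carry an unknown counting error.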

Other observations

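Gene families taken from symbols were chosen after their values were seen, and their counts are given without a test. Over all genes tested, 26.3% rose and 25.7% fell. Of 17 Cfap genes, of cilia and flagella, 17 rose, and the median member went from 0.922 and 1.33 FPKM in the spermatogonia libraries to 57.3 and 74.8 in the MI libraries. Of 271 genes that carry only a RIKEN clone name starting with 1700, 159 rose and 2 fell. Of 124 Ccdc genes, 67 rose and 9 fell, and of 26 Spata genes 16 rose and 1 fell. Of 48 clustered histone genes, 35 fell and 2 rose (median −2.89), and the rises were Hist1h1t and Hist2h2be, the latter named after its values were seen, from 0.282 and 0.754 to 27.1 and 39.1 FPKM. Ribosomal protein genes fell in part: 24 of 51 of the large subunit and 14 of 34 of the small subunit, while 2 and 0 rose. Of 22 olfactory receptor genes, 12 rose and 0 fell. Other families were mixed, with 7 rises and 10 falls among 46 Psm genes, mostly of the proteasome, 9 and 16 among 75 Mrp genes, 8 and 13 among 53 Eif genes and 52 and 88 among 283 Zfp genes.

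Genes called in opposite directions in the 2 genotypes numbered 4, and were named after their values were seen. B4galnt1 held 3.24 and 1.26 against 6.75 and 8.24 FPKM in the wild type and 11.9 and 12.4 against 6.09 and 4.39 in the Tex10-deficient libraries. Diap1 and Pxdc1 also rose in the wild type and fell in the Tex10-deficient libraries, and Pbx3 went the other way, from 14.6 and 17.7 to 10.3 and 7.19 FPKM in the wild type and from 8.92 and 12.1 to 21.4 and 17.2 in the Tex10-deficient libraries.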
